A study of Mus musculus with 9 samples.

Results

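The miRNAs described here were the arms of miR-124, miR-9 and miR-128, measured in the hippocampus of mice after aspiration of fine particulate matter (PM2.5). They were taken by name from the array, as every entry whose name begins with mmu-miR-124-, mmu-miR-9- or mmu-miR-128-. The rule found 7 of the 1247 mouse miRNAs on the array. Of these, 5 were detected on all 9 arrays and were tested, namely mmu-miR-124-3p, mmu-miR-124-5p, mmu-miR-9-5p, mmu-miR-9-3p and mmu-miR-128-3p. The other 2 were mmu-miR-128-1-5p and mmu-miR-128-2-5p, the arms opposite miR-128-3p in its precursors. The prefix mmu, for mouse, is left out below.

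A miRNA is cut from a hairpin precursor, and either strand of the stem, the 5p or the 3p arm, can be loaded into the silencing complex. The loaded strand then pairs, mostly through its seed, with sites in messenger RNAs and lowers their translation or stability. miR-124 is abundant in neurons and represses non-neuronal transcripts, miR-9 acts in neural progenitors and in neuronal differentiation through both of its arms, and miR-128 is enriched in the brain and restrains neuronal excitability. miR-9 is also one of the miRNAs known to act on BACE1, the β-secretase that starts the release of amyloid β.

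Hippocampal RNA of C57BL/6 mice, all males of about 8 weeks when obtained, was hybridized to 9 one-colour (Cy3) Agilent mouse miRNA arrays. The control group received oropharyngeal aspiration of saline, and the PM2.5 groups received 1 mg/kg bw or 5 mg/kg bw in saline, every other day for 4 weeks, with 3 arrays in each group. Tissue was taken 18 h after the last aspiration. The control here was saline itself, not the saline shaken with a blank filter that the study also used, so particles and filter material cannot be told apart in these comparisons. The study describes the array samples of the control and 5 mg/kg bw groups as individual mice, while the labels number the samples of each group as replicates without naming the mice. For 1 mg/kg bw, where the mice are not described, the p-values measure only the spread between these samples.

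Each array had between 410 and 436 miRNAs detected. A miRNA was tested where some group had it detected on each of its 3 arrays, which 424 met, and 0 spots were saturated. The 3 control arrays and replicate 1 of 1 mg/kg bw lay in row 1 of slide 1, replicates 2 and 3 of 1 mg/kg bw and replicates 1 and 2 of 5 mg/kg bw in row 2 of slide 1, and replicate 3 of 5 mg/kg bw alone on slide 2. Dose and place on the slides were therefore partly confounded, and values by row are given beside the results they touch. The total signal stored in the files was also divided by the sum of a miRNA's own probes on each array. For 61 of the 424 tested miRNAs this ratio was over 2 times the array's median ratio on all 9 arrays. That median was taken over the miRNAs detected on all 9 arrays. Of the miR-124, miR-9 and miR-128 arms, 0 were among the 61.

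The mature sequences are shown first because the seeds set the targets that each arm can reach and the probes read only a stretch of each miRNA. The RefSeq table (GRCm38.p6) held 5 of the 7 sequences. They are printed 5′ to 3′ with the seed, bases 2 to 8, in capitals.
miR-9-5p: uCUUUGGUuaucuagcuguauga
miR-9-3p: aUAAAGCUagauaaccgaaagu
miR-128-3p: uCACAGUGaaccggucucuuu
miR-128-1-5p: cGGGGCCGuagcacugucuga
miR-128-2-5p: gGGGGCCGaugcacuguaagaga

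For miR-124, the stretch of each arm that the longer of its 2 probes matches is printed, read as the reverse complement of the deposited probe sequence and with no base in capitals.
miR-124-3p, 15 bases: cacgcggugaaugcc
miR-124-5p, 17 bases: ucacagcggaccuugau

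Among 1017 miRNAs on the array with a RefSeq sequence, 0 others had the seed of miR-9-5p, of miR-9-3p or of miR-128-3p, while miR-128-1-5p and miR-128-2-5p shared theirs with each other. The seed of miR-128-3p, CACAGUG, was also found 1 base further in, at bases 3 to 9, in miR-27a-3p and miR-27b-3p, which are printed for that reason with their own seeds in capitals.
miR-27a-3p: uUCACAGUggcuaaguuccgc
miR-27b-3p: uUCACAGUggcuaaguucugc

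Each miRNA had 2 probes of 20 spots, which differed by 1 base in length. The longer probe matched bases 5 to 23 of miR-9-5p, bases 4 to 22 of miR-9-3p and bases 2 to 21 of miR-128-3p, so it covered the seed of miR-128-3p whole and those of the miR-9 arms only from bases 5 and 4 on. Copies of a miRNA from several genes have the same mature sequence, and the array cannot tell them apart. miR-9-5p and miR-9-3p come from Mir9-1 (mature miR-9-5p at chr3:88215613-88215635), Mir9-2 (chr13:83738821-83738843) and Mir9-3 (chr7:79505279-79505301), all on the plus strand of GRCm38.p6 and within the spans of the non-coding genes Gm3764, C130071C03Rik and Mir9-3hg. miR-128-3p comes from Mir128-1 (chr1:128202404-128202424, plus strand, within the span of R3hdm1) and Mir128-2 (chr9:112118644-112118664, minus strand, within the span of Arpp21). The hairpins of miR-124 are Mir124a-1 (chr14:64590657-64590741), Mir124a-2 (chr3:17795662-17795770) and Mir124a-3 (chr2:180894040-180894107), of which the first 2 lie within the spans of Mir124a-1hg and Mir124-2hg.

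No arm of miR-124, miR-9 or miR-128 passed the adjusted threshold at either dose of PM2.5. At 5 mg/kg bw against control, 0 of the 5 tested arms had an adjusted p under 0.05 in limma, beside 0 of all 424 tested miRNAs (0%), and 0 had an unadjusted p under 0.05, beside 9.43% of all. At 1 mg/kg bw against control, 0 of 5 had an adjusted p under 0.05, beside 0.236% of all, and 0 had an unadjusted p under 0.05, beside 7.78%. Between the doses, 0 of 5 had an adjusted p under 0.05, beside 0.236%, and 1 of 5, miR-9-5p, had an unadjusted p under 0.05, beside 3.77%. In each of the 3 comparisons 1 arm had groups that did not overlap, beside 16% of all tested miRNAs for 5 mg/kg bw against control, 12.3% for 1 mg/kg bw against control and 7.31% between the doses. Such counts of 1 in 5 rest on a single miRNA. The differences ranged from -0.29 to 0.17 on the log2 scale.

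**Figure D1:**
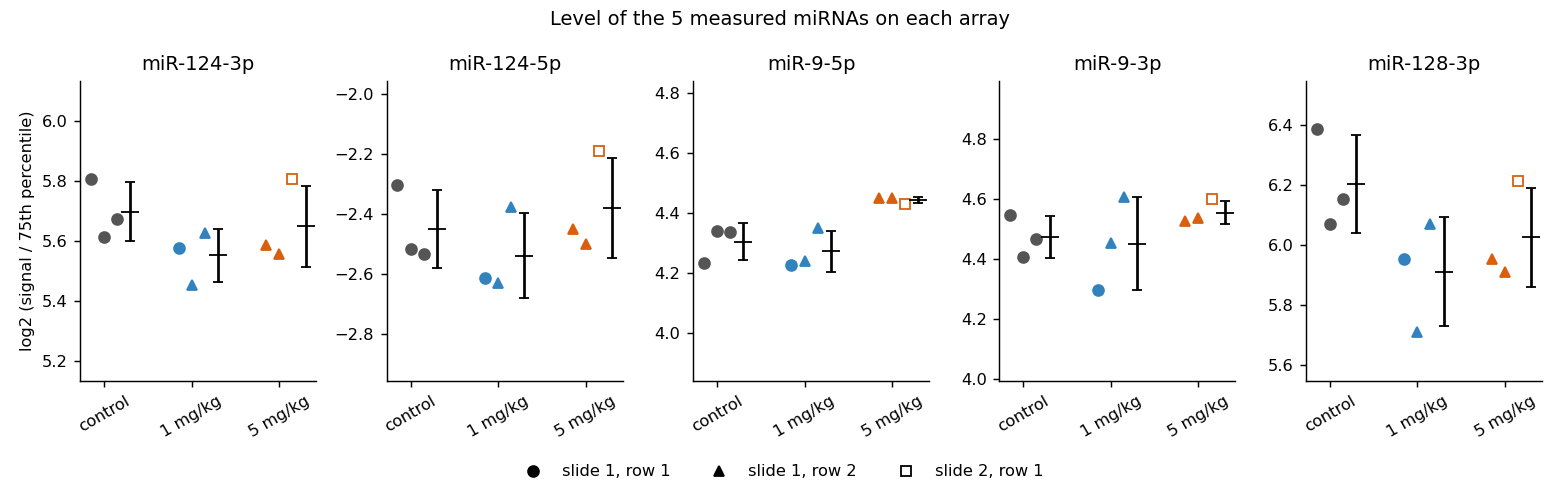
Level of each tested arm on each array, as log2 of the signal over the array's 75th percentile, by group, with the mean and SD of the 3 arrays beside the points. Each panel spans 1 log2 unit, and the marker gives the place on the slides. The 3 arrays of 5 mg/kg bw lie above all control arrays for miR-9-5p (4.43 to 4.45 against 4.23 to 4.34), and the 3 arrays of 1 mg/kg bw lie below all control arrays for miR-128-3p.

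miR-9-5p, the arm with the seed CUUUGGU, was slightly higher at 5 mg/kg bw than in the other groups. Its level, given like all levels here as log2 of the signal over the array's 75th percentile, was 4.23, 4.34 and 4.34 on the control arrays. It was 4.23, 4.24 and 4.35 at 1 mg/kg bw. It was 4.45, 4.45 and 4.43 at 5 mg/kg bw. All arrays of 5 mg/kg bw were thus above every array of the other groups, which overlapped each other. The group means ± SD (n = 3) were 4.30 ± 0.062 for control, 4.27 ± 0.069 for 1 mg/kg bw and 4.44 ± 0.011 for 5 mg/kg bw.

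The log2 difference of miR-9-5p between 5 mg/kg bw and control was 0.14 (SE 0.065), a ratio of 1.102 with a 95% interval from 0.993 to 1.22 (limma, unadjusted p = 0.0633, adjusted p = 0.511). Between 5 and 1 mg/kg bw it was 0.17 (SE 0.065), a ratio of 1.13 with an interval from 1.02 to 1.25 (limma, unadjusted p = 0.0295, adjusted p = 0.995). Between 1 mg/kg bw and control it was -0.03 (SE 0.065), a ratio of 0.978 (limma, unadjusted p = 0.643). The two-sided exact permutation test of 3 arrays against 3 gave p = 0.1 for the first 2 comparisons, which is the smallest p that 20 arrangements allow. Over the 3 groups together the exact permutation test over all arrangements of the 9 arrays gave p = 0.0643.

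The precision of miR-9-5p was high on these arrays. Its pooled within-group SD was 0.054 on the log2 scale, beside a median of 0.14 over all tested miRNAs, and 20 of the 424 had a smaller one. Its 2 probes gave similar differences between 5 mg/kg bw and control, 0.13 and 0.16 on the log2 scale. Since these probes differ by only 1 base, their likeness is not an independent check. Within row 2 of slide 1, which holds arrays of both doses and no control, the 2 arrays of 5 mg/kg bw were on average 0.15 above the 2 arrays of 1 mg/kg bw on the log2 scale. Replicate 3 of 5 mg/kg bw, the array on slide 2, was 0.13 above the mean of the controls, which share its row number. With the row as a block, the log2 difference between 5 mg/kg bw and control was 0.11 (SE 0.082; limma, unadjusted p = 0.216).

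miR-9-3p, the opposite arm with the seed UAAAGCU, had overlapping groups in all 3 comparisons. Its levels were 4.55, 4.41 and 4.47 in the control group. They were 4.30, 4.45 and 4.61 at 1 mg/kg bw and so spanned the whole range of the 9 arrays. They were 4.53, 4.54 and 4.60 at 5 mg/kg bw, of which the lowest was under the highest control. The log2 difference from control was 0.08 (SE 0.088) at 5 mg/kg bw, with a ratio of 1.06 and a 95% interval from 0.920 to 1.22 (limma, adjusted p = 0.784). That at 1 mg/kg bw was -0.02 (SE 0.088), with a ratio of 0.985 and an interval from 0.856 to 1.13 (limma, adjusted p = 0.948). The intervals leave room for a change of up to about 1.22-fold at 5 mg/kg bw, so the test does not show that the arm stayed level.

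The 2 arms of miR-9 were set against each other within each array, which removes the scaling of the array. Since the arms have different probes, the size of this difference is not a ratio of molecules, and only its change between groups was read. The log2 signal of miR-9-5p minus that of miR-9-3p was -0.31, -0.07 and -0.13 on the control arrays. It was -0.07, -0.21 and -0.25 at 1 mg/kg bw and -0.08, -0.09 and -0.17 at 5 mg/kg bw. The groups overlapped, and the mean at 5 mg/kg bw was 0.06 above control (exact two-sided permutation p = 0.7). Over the 3 groups the exact permutation p was 0.654, so no shift between the arms was detectable with 9 arrays. In the deposited log2 table the 5 mg/kg bw mean differed from control by -0.02 and the 1 mg/kg bw mean by -0.13, the groups of the 2 doses did not overlap (0.11 between the means, two-sided exact permutation p = 0.1) and the exact permutation p over the 3 groups was 0.0643. Across the 9 arrays the arms of miR-9 had Pearson's r = 0.557 (exact permutation p = 0.112) and Spearman's rho = 0.467 (exact permutation p = 0.213). The r was 0.370 without the 2 arrays farthest from the median of miR-9-5p. It was 0.551 over the 5 arrays in row 1 and 0.484 over the 4 arrays in row 2.

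miR-124-3p, the main neuronal arm of miR-124, did not separate the groups. Its levels were 5.80, 5.61 and 5.67 in the control group. They were 5.58, 5.45 and 5.62 at 1 mg/kg bw and 5.58, 5.56 and 5.80 at 5 mg/kg bw. Replicate 1 of the control group and replicate 3 of 5 mg/kg bw were the 2 highest arrays, both at 5.80. The log2 difference from control was -0.05 (SE 0.093) at 5 mg/kg bw, with a ratio of 0.967 and a 95% interval from 0.834 to 1.12 (limma, adjusted p = 0.884). At 1 mg/kg bw it was -0.15 (SE 0.093), with a ratio of 0.904 and an interval from 0.780 to 1.05 (limma, adjusted p = 0.689). The direction at 5 mg/kg bw was not settled, since it was 0.065 on the log2 scale without any scaling, 0.022 with quantile normalization and 0.0050 without replicate 1 of the control group.

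miR-124-5p, the opposite arm, was dim, with a probe mean between 31.9 and 80.0 signal units per array, and was detected on all 9 arrays. Its levels were -2.30, -2.52 and -2.53 in the control group. They were -2.61, -2.63 and -2.38 at 1 mg/kg bw and -2.45, -2.50 and -2.19 at 5 mg/kg bw, and all groups overlapped. The log2 difference from control was 0.07 (SE 0.11) at 5 mg/kg bw, with a ratio of 1.05 and a 95% interval from 0.876 to 1.26 (limma, adjusted p = 0.864). That at 1 mg/kg bw was -0.09 (SE 0.11), with a ratio of 0.940 (limma, adjusted p = 0.865). Without replicate 3 of 5 mg/kg bw, the highest of the 9 arrays, the difference at 5 mg/kg bw was -0.023.

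With the processing used here, the arms of miR-124 varied together from array to array. Across the 9 arrays miR-124-3p and miR-124-5p had Pearson's r = 0.850 (exact permutation p = 0.00431, 0.00863 after adjustment over the 2 pairs of arms) and Spearman's rho = 0.717 (exact permutation p = 0.0369). After the group means were taken out, r was 0.912 as a description. It was 0.945 over the 5 arrays in row 1 and 0.995 over the 4 in row 2. Without replicate 1 of the control group and replicate 3 of 5 mg/kg bw, the 2 arrays farthest from the median of miR-124-3p, r was 0.526, so the size of the relation rests in part on those arrays. In the deposited log2 table r was -0.283. All miRNAs of an array share its scaling, and miR-124-3p had a higher r with miR-128-3p (0.960). The p-values therefore do not show a relation particular to the arms of this hairpin.

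The log2 signal of miR-124-3p minus that of miR-124-5p was 8.11, 8.13 and 8.21 on the control arrays. It was 8.19, 8.08 and 8.0 at 1 mg/kg bw and 8.03, 8.05 and 7.99 at 5 mg/kg bw. All arrays of 5 mg/kg bw were below all control arrays, by 0.12 between the means (8.03 ± 0.031 against 8.15 ± 0.053, SD, n = 3). The two-sided exact permutation p was 0.1, the smallest it can be, and over the 3 groups it was 0.168. With normexp background correction, which changes dim signals most, the difference was -0.03 and the groups overlapped. In the deposited log2 table it was also -0.03, with overlapping groups (two-sided exact permutation p = 0.8).

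**Figure D2:**
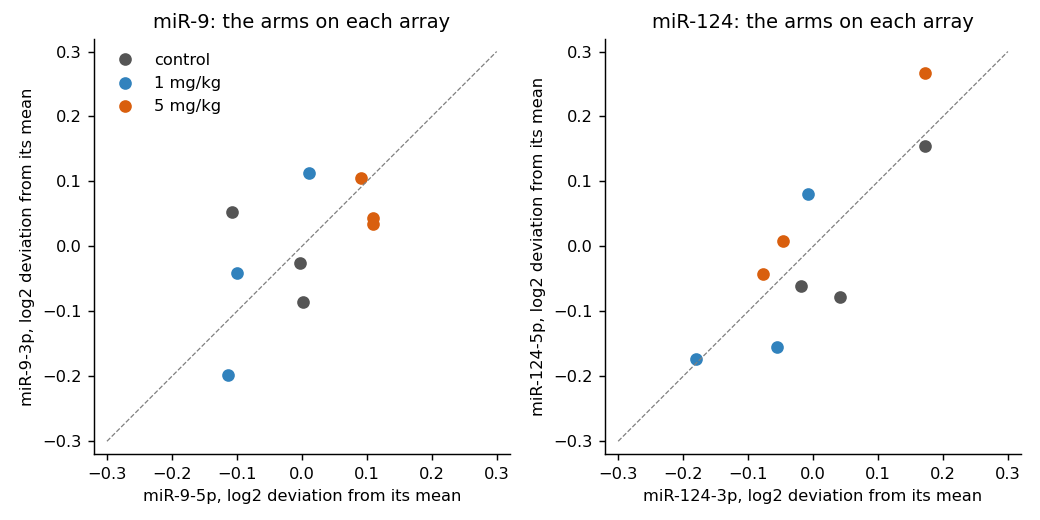
The 2 arms of miR-9 (left) and of miR-124 (right) on each of the 9 arrays, each as the log2 deviation from its own mean over the arrays, with the line of equal deviation dashed. The arms of miR-124 lie along the line (r = 0.850), and those of miR-9 follow it less closely (r = 0.557).

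miR-128-3p was lowest at 1 mg/kg bw. Its levels were 6.39, 6.07 and 6.15 in the control group. They were 5.96, 5.71 and 6.07 at 1 mg/kg bw and 5.95, 5.91 and 6.21 at 5 mg/kg bw. The arrays of 1 mg/kg bw were all below the control arrays, with a gap between the groups of less than 0.01, while the arrays of 5 mg/kg bw overlapped both other groups. The group means ± SD (n = 3) were 6.20 ± 0.16 for control, 5.91 ± 0.18 for 1 mg/kg bw and 6.03 ± 0.16 for 5 mg/kg bw.

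The log2 difference of miR-128-3p between 1 mg/kg bw and control was -0.29 (SE 0.13), a ratio of 0.817 with a 95% interval from 0.665 to 1.00 (limma, unadjusted p = 0.0530, adjusted p = 0.543). The two-sided exact permutation test gave p = 0.1. Between 5 mg/kg bw and control the difference was -0.18 (SE 0.13), a ratio of 0.884 with an interval from 0.720 to 1.09 (limma, adjusted p = 0.698), and between 5 and 1 mg/kg bw it was 0.11 (SE 0.13; limma, adjusted p = 0.995). Both probes, which differ by only 1 base and so are not independent, gave like values at 1 mg/kg bw, -0.28 and -0.30. Over the 3 groups the exact permutation p was 0.196.

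Place on the slides moved with miR-128-3p. Its mean was 6.16 over the 5 arrays in row 1 and 5.91 over the 4 arrays in row 2, a log2 difference of -0.24. The two-sided exact permutation test of row 2 against row 1 gave p = 0.0397. This difference is not free of dose, because row 1 holds all 3 controls and row 2 holds none. With the row as a block, the difference between 1 mg/kg bw and control was -0.18 (SE 0.15; limma, unadjusted p = 0.281), and between 5 mg/kg bw and control it was -0.06. Within row 1 of slide 1, the array of 1 mg/kg bw was 0.25 below the mean of the controls. Without replicate 1 of the control group, the highest array, the difference at 1 mg/kg bw was -0.20. The part of the row in the dose differences was not tested beyond these values. For miR-124-3p the rows differed by -0.14 on the log2 scale (two-sided exact permutation p = 0.0794). For miR-9-5p they differed by 0.06 (two-sided exact permutation p = 0.254).

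The arms opposite miR-128-3p were at the edge of detection. miR-128-1-5p was called detected on 2 of 9 arrays, replicate 3 of 1 mg/kg bw and replicate 3 of 5 mg/kg bw, and miR-128-2-5p on 0 of 9. The summed signal of their probes lay between 1.56 and 8.11 units for miR-128-1-5p and between 2.13 and 7.92 for miR-128-2-5p. Since the groups were not well above background, no fold was computed for either.

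miR-27a-3p and miR-27b-3p, which carry the seed of miR-128-3p 1 base further in, had other values than miR-128-3p. Their log2 differences from control at 1 mg/kg bw were -0.03 (SE 0.14) and 0.03 (SE 0.12). At 5 mg/kg bw they were -0.05 (SE 0.14) and 0.01 (SE 0.12), with limma adjusted p-values of 0.887 and 0.984. Their difference from miR-128-3p was not tested.

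**Figure D3:**
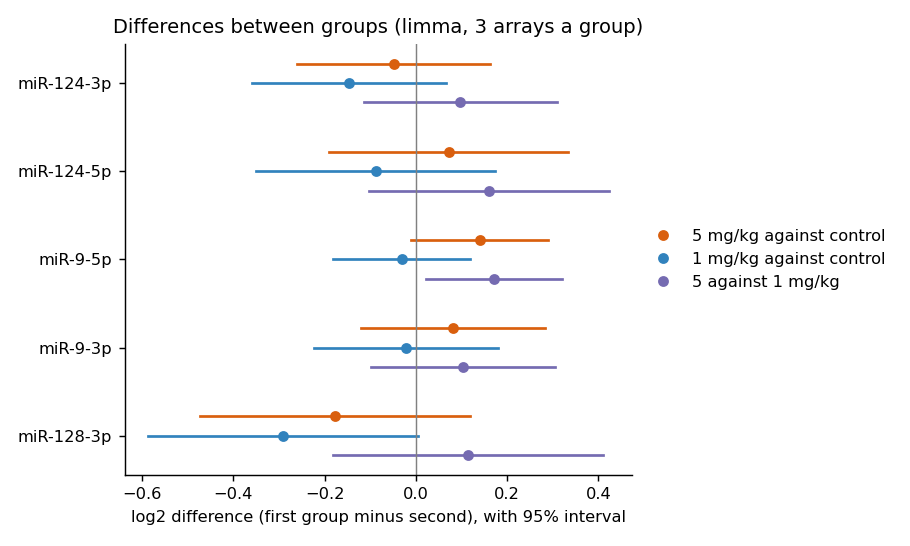
Log2 difference of each tested arm in the 3 comparisons, with the 95% interval from limma (points and lines, 3 arrays a group). The interval of miR-9-5p between 5 and 1 mg/kg bw lies above 0, and the interval of every other arm and comparison includes 0.

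The likeness of the 5 tested arms over the 9 arrays is described by Pearson's r. No test was added to those of the 2 pairs of arms above, because all miRNAs of an array share its scaling. miR-124-3p and miR-128-3p had r = 0.960, and each was among the 3 tested miRNAs closest to the other, of 394 compared. The other miRNAs closest to miR-124-3p were miR-674-3p (r = 0.956) and miR-29c-3p (r = 0.946), and those closest to miR-128-3p were miR-29a-3p (r = 0.964) and miR-29c-3p (r = 0.963). miR-124-5p had r = 0.850 with miR-124-3p, 0.740 with miR-128-3p and 0.774 with miR-9-3p, and was closest to miR-135b-5p (r = 0.942), miR-24-2-5p (r = 0.904) and miR-30b-5p (r = 0.893).

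miR-9-5p followed neither miR-124-3p (r = 0.094) nor miR-128-3p (r = -0.015). The miRNAs closest to it were miR-411-5p (r = 0.840), miR-3475 (r = 0.812) and miR-708-5p (r = 0.805), of which miR-708-5p is one of the 61 whose stored total departs from its own probes. miR-9-3p was closest to miR-30e-3p (r = 0.919), miR-125b-5p (r = 0.907) and miR-101c (r = 0.903). The opposite arm was not among the 3 closest for any of the 4 arms of miR-9 and miR-124.

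Other miRNAs enriched in neurons were read beside these arms, from a list of families such as miR-7, miR-129, miR-132, miR-137, miR-138 and miR-218. Of the 33 on the array, 26 were tested. At 5 mg/kg bw against control, 1 of 26 had an unadjusted p under 0.05, beside 9.43% of all tested, and 0 an adjusted one. This was miR-153-5p, with a log2 difference of 0.30 (SE 0.093; limma, adjusted p = 0.391), whose stored total also departs from its own probes. At 1 mg/kg bw, 0 of 26 had an unadjusted p under 0.05, beside 7.78% of all tested.

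The median log2 difference of these 26 was 0.08 at 5 mg/kg bw, beside -0.003 over all 424 tested, and 21 of 26 were above 0, beside 48.8% of all. With normexp background correction 13 of 26 were above 0, beside 28.1% of all, but the median of all tested miRNAs then was itself -0.05. Counted against the median of all, 22 of 26 were above it with normexp and 21 of 26 with the processing used here. The count was 20 with quantile normalization and 19 with the stored total and in the deposited log2 table. The 26 include several arms of the same families, which are not independent. At 1 mg/kg bw the median was -0.01, beside -0.03 over all, and 13 of 26 were above 0, beside 39.9% of all.

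**Figure D4:**
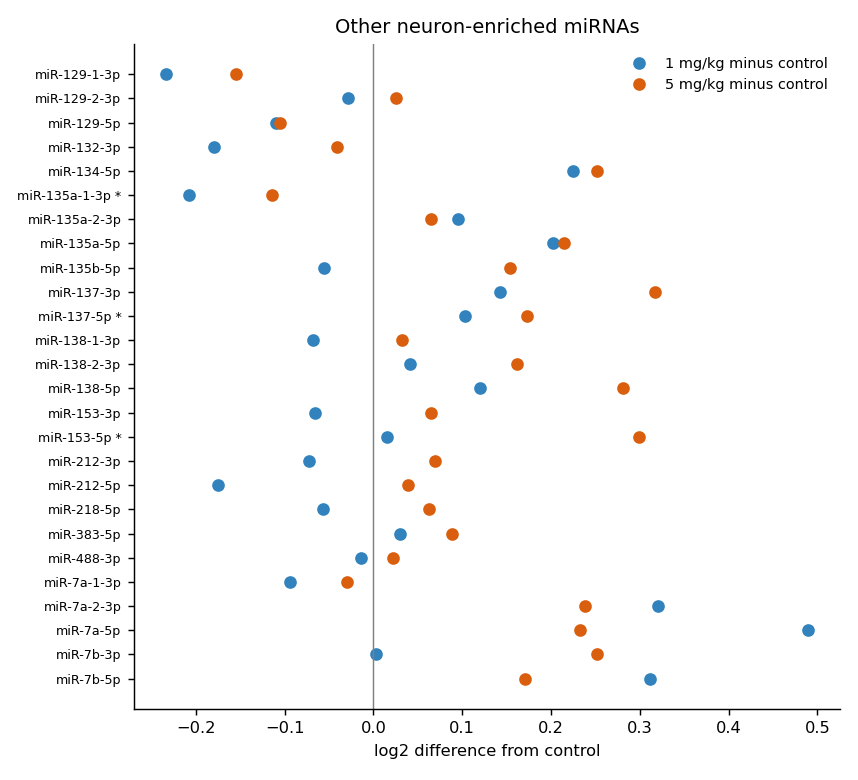
Log2 difference from control of the 26 tested members of the list of other neuron-enriched miRNAs, at 1 mg/kg bw (blue) and 5 mg/kg bw (orange), which share their control arrays. An asterisk marks the members whose stored total departs from their own probes. Most orange points lie above 0, and the blue points lie on both sides.

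Markers of other cells that the tissue could hold were also read, since the samples were whole hippocampus, in which fewer cells of a type and less RNA per cell cannot be told apart. The summed scaled signal of the choroid plexus miRNAs (miR-204, miR-211 and miR-448, 5 of 6 tested) lay between 3.22 and 5.03 in the control group, between 5.53 and 8.91 at 1 mg/kg bw and between 2.98 and 5.73 at 5 mg/kg bw. The arrays of 1 mg/kg bw were all above the controls. Of single tested miRNAs, 12.3% had groups that did not overlap in this comparison. miR-204-5p and miR-204-3p had log2 differences of 0.77 (SE 0.28) and 1.08 (SE 0.36) there (limma, adjusted p = 0.538 for both). Between the doses, miR-9-5p had an unadjusted p under 0.05. In that comparison 4 of the 5 tested choroid plexus miRNAs were lower at 5 than at 1 mg/kg bw. Each of the 4 had an unadjusted p under 0.05, beside 3.77% of all tested in either direction, and 0 had an adjusted one. The 5 include both arms of miR-204 and of miR-211, which are not independent. The median log2 difference of the list was -0.83, beside 0.04 over all tested. The summed scaled signal of the oligodendrocyte miRNAs (miR-219 and miR-338, 4 of 5 tested) lay between 4.21 and 6.13 in the control group, between 5.15 and 6.43 at 1 mg/kg bw and between 2.95 and 6.82 at 5 mg/kg bw. Their median log2 difference from control was -0.28 at 5 mg/kg bw and 0 of 4 were above 0, beside -0.003 and 48.8% over all. At 1 mg/kg bw it was 0.17 and 4 of 4 were above 0, beside -0.03 and 39.9%. Between 5 and 1 mg/kg bw the median was -0.44 and 0 of 4 were above 0, beside 0.04 and 67.9%. In these comparisons 0 of 4 had an unadjusted p under 0.05, beside 9.43%, 7.78% and 3.77% of all. Arms of the same family are not independent.

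The red blood cell miRNAs (miR-144, miR-451 and miR-486, 2 of 5 tested) lay between 2.90 and 3.69 in the control group and between 2.98 and 3.51 at 1 mg/kg bw. They lay between 3.77 and 4.08 at 5 mg/kg bw, so the arrays at which miR-9-5p was highest were also above the controls here. Of single tested miRNAs, 16% had groups that did not overlap between 5 mg/kg bw and control. miR-451a had a log2 difference of 0.26 (SE 0.10; limma, adjusted p = 0.469) at 5 mg/kg bw. The microglial and leukocyte miRNAs (5 of 10 tested) lay between 1.02 and 1.03 in the control group and between 1.04 and 1.12 at 5 mg/kg bw, with miR-142-3p at a log2 difference of 0.21 (SE 0.084; limma, adjusted p = 0.469). At 1 mg/kg bw they lay between 0.95 and 1.08, which overlaps both other groups. The vessel wall miRNAs (4 of 7 tested) lay between 5.93 and 6.48 in the control group, between 6.23 and 6.61 at 1 mg/kg bw and between 6.07 and 6.83 at 5 mg/kg bw, with miR-143-3p at a log2 difference of 0.29 (SE 0.11; limma, adjusted p = 0.543) at 1 mg/kg bw. The members of these lists that were not tested (miR-144-5p, miR-451b, miR-486-3p, miR-142-5p, miR-146a-3p, miR-150-3p, miR-155-3p, miR-223-5p, miR-143-5p, miR-145a-3p and miR-145b) were detected on 0 arrays. Their part in the values of miR-9, miR-124 and miR-128 was not tested.

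**Figure D5:**
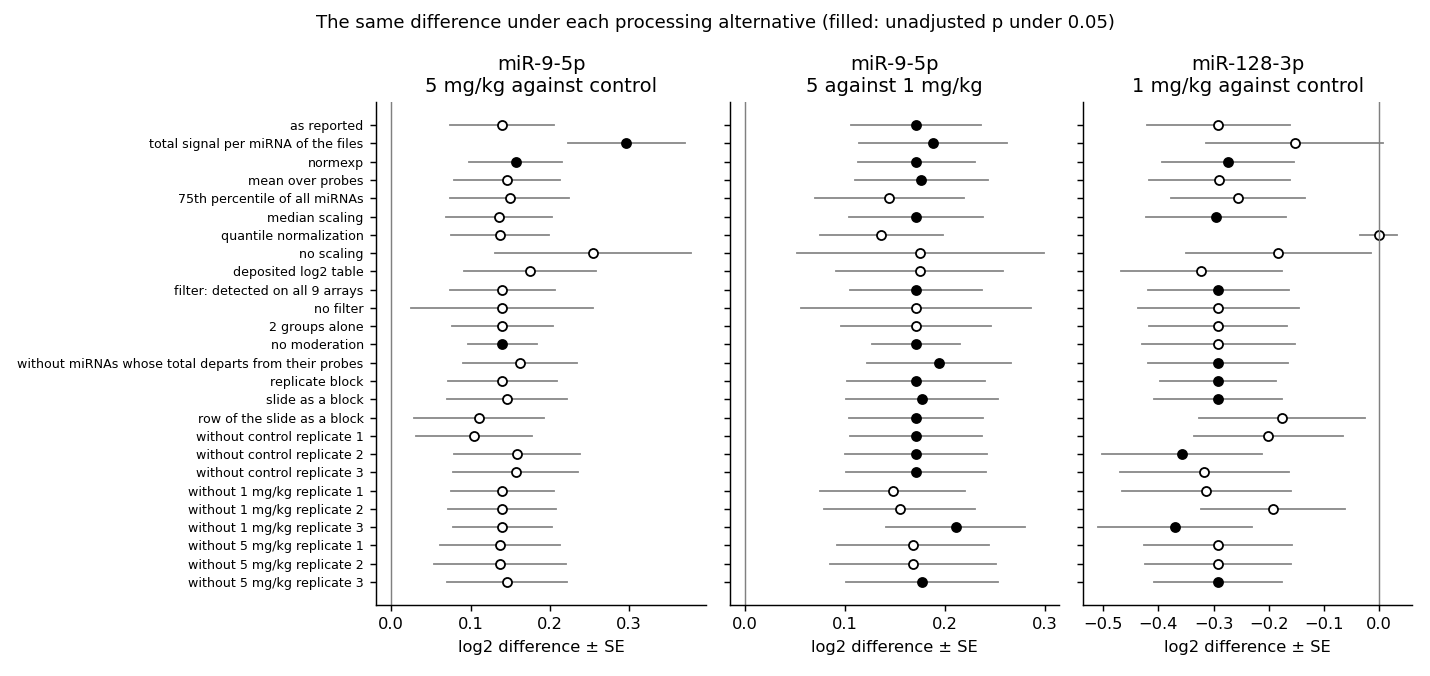
Log2 difference ± SE of miR-9-5p in 2 comparisons and of miR-128-3p in 1, as reported (top row) and under each processing alternative, with filled points where the unadjusted limma p was under 0.05. miR-9-5p stays above 0 throughout (0.10 to 0.30 at 5 mg/kg bw against control), and miR-128-3p stays below 0 except with quantile normalization, which gives it 0.

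These 3 differences kept their direction under nearly all alternatives, while their side of the unadjusted threshold changed. For miR-9-5p at 5 mg/kg bw against control, the unadjusted p was under 0.05 in 3 of 24 alternatives, with the slide as a block and the fit without replicate 3 of 5 mg/kg bw, which are the same, counted once. Between the doses of PM2.5 it was under 0.05 in 14 of 24. For miR-128-3p at 1 mg/kg bw against control it was under 0.05 in 8 of 24. With quantile normalization miR-128-3p had a difference of 0, since it held rank 3 in signal on each array and ranks alone set the value there.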

How the data were processed

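Per the file headers, the authors used Agilent Feature Extraction (10.7 per the labels' processing notes) on the array scans, which gave each spot a background-subtracted intensity and each miRNA a detection call, without normalization between arrays. The authors also deposited a table of log2 values, whose normalization is not given in the sources used here. From the intensities, outlier spots were left out, spots of a probe averaged, probes of a miRNA summed, each array divided by its 75th percentile over the 395 miRNAs detected throughout, lower values raised to the array's lowest detected one, and log2 taken. The 3 groups were fitted over 9 arrays with limma 3.58.1 in R 4.3.3 (Benjamini-Hochberg adjustment over all 424 tested). The fit pools the spread of the groups as the study's ANOVA with LSD does, but also moderates it over all tested miRNAs. The study used its arrays as an initial screen at an unadjusted p under 0.05 and verified relevant candidates by real-time qPCR. Exact permutation tests, checked code and figures used Python 3.11.15 and scipy 1.17.1, and the fit was tested on simulated data. The miRNAs, the marker lists (all arms and loci of each family) and the tests were chosen with earlier results of these data known. Besides the arms themselves, the text names the 3 tested miRNAs closest to each arm, miR-27a-3p and miR-27b-3p, and at most 4 members of each marker list at an unadjusted p under 0.05. Sequences come from RefSeq (GRCm38.p6) or the deposited probes. The number of arrays limits the precision. Alternatives were the stored total signal, normexp (offset 50), the mean over probes, 4 scalings, 2 filters, the deposited log2 table, 2 groups alone, no moderation, 3 blocks, each array left out, and, chosen after the data were seen, the 61 miRNAs left out.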

Additional observations from a re-analysis of the deposited data

How the results depend on the processing

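In every alternative, 0 of the 5 arms had an adjusted p under 0.05. The counts of arms at an unadjusted p under 0.05 moved by 1. At 5 mg/kg bw against control the count was 1 (miR-9-5p) with the total signal stored in the files, with normexp background correction and without moderation. For 1 mg/kg bw against control it was 1 (miR-128-3p) with normexp, with median scaling, with the filter of detection on all 9 arrays, without the 61 miRNAs whose total departs from their probes (chosen after the data were seen), and with the slide as a block (the same fit as leaving out replicate 3 of 5 mg/kg bw, which lies alone on slide 2). It was also 1 with the replicate number as a block, where the log2 difference was -0.29 with an unadjusted p of 0.0301. Samples with the same number did not all deviate together (r between -0.65 and 0.74 over the 9 pairs of samples), so the numbers were not used as pairs. Between the 2 doses all 3 pairs had r above 0.1 (0.14 to 0.39), and there the replicate block gave miR-9-5p a log2 difference of 0.17 with an unadjusted p of 0.0448. This block changed no other count of arms. Between the doses the count was 0 with scaling to the 75th percentile of all, quantile normalization, no scaling, the deposited log2 table, no filter and the 2 groups alone. With each array left out in turn it was 0 to 1 at 1 mg/kg bw (1 without replicate 2 of control, replicate 3 of 1 mg/kg bw or replicate 3 of 5 mg/kg bw) and 0 to 1 between the doses (0 without replicate 1 or 2 of either PM2.5 group). The cause was not tested.

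Directions of small differences were less stable. For miR-124-3p at 5 mg/kg bw the log2 difference was 0.11 with the stored total, 0.022 with quantile normalization, 0.065 without scaling, 0.045 in the deposited log2 table, 0.041 with the row as a block, and -0.13 to 0.0050 with arrays left out, above 0 without replicate 1 of control. For miR-124-5p at 5 mg/kg bw it was -0.0020 with normexp, -0.023 with the slide as a block and -0.023 to 0.15 with arrays left out, and at 1 mg/kg bw 0.051 with the stored total and 0.021 without scaling. For miR-9-3p at 1 mg/kg bw it was 0.12 with the stored total, 0.013 with scaling to the 75th percentile of all, 0.047 with quantile normalization, 0.087 without scaling, 0.13 in the deposited table and -0.10 to 0.055 with arrays left out. For miR-9-5p at 1 mg/kg bw it was 0.11 with the stored total, 0.0043 with scaling to the 75th percentile of all and 0.078 without scaling. The median of all tested miRNAs itself moved to 0.11 (5 mg/kg bw) and 0.078 (1 mg/kg bw) without scaling, and to 0.14 and 0.10 with the stored total.

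The difference between the arms of miR-9 at 5 mg/kg bw was -0.018 in the deposited table (-0.13 at 1 mg/kg bw and 0.11 between the doses) and -0.013 to 0.11 with arrays left out, and at 1 mg/kg bw -0.081 to 0.043. Their r was 0.852 with the stored total and 0.826 in the deposited table. For miR-124 the difference in the deposited table was 0.16 for 1 mg/kg bw against control (-0.030 for the higher dose) and 0.030 with normexp between the doses, and r was -0.283 in the deposited table.

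Over all tested miRNAs, the 40 at an unadjusted p under 0.05 for 5 mg/kg bw against control became 102 with the stored total (2 at an adjusted p), 17 with normexp, 25 without the 61, 14 with the row as a block and 21 to 120 with arrays left out (120 without replicate 3 of 5 mg/kg bw, which is also the value with the slide as a block, 21 without replicate 1 of control or replicate 1 or 2 of 5 mg/kg bw). The 33 at 1 mg/kg bw became 14 with normexp, 8 with the row as a block, 11 to 49 with arrays left out and 780 without the filter (758 at an adjusted p), where undetected miRNAs hold only the array's floor. The 1 at an adjusted p there became 0 with normexp, the deposited table, the 2 groups alone and no moderation, and 0 to 1 with arrays left out. The 16 between the doses became 9 with normexp and 8 to 35 with arrays left out (35 without replicate 3 of 5 mg/kg bw and so with the slide as a block), and the 1 at an adjusted p became 2 with the stored total and 0 in the deposited table.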
